A study of Mus musculus with 20 samples.

Results

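The genes of the constitutive proteasome were followed in left ventricular tissue of mice on 4 diets. Members were taken by name: every gene in the count table whose mouse symbol begins with Psm, then a letter from a to g, then a number, except Psmb8, Psmb9 and Psmb10, the 3 catalytic subunits of the immunoproteasome. This gave 47 genes of the 15956 listed. They were sorted by the known place of each product into 16 genes of the 20S core (8 alpha and 8 beta), 17 genes of the 19S cap (6 ATPases and 11 other subunits), 12 assembly chaperones and regulators, and 2 further matches. The 2 further matches were Psmc3ip, whose product works in meiotic recombination and is no proteasome subunit, and Psme2b, a copy of Psme2.

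The proteasome degrades proteins that carry a ubiquitin tag. Its 20S core is a barrel in which rings of beta subunits, among them the proteases encoded by Psmb5, Psmb6 and Psmb7, lie between outer rings of alpha subunits that gate the entrance. The 19S cap binds ubiquitin, removes it and unfolds the substrate with a ring of ATPases, and in heart muscle this machine turns over sarcomeric and damaged proteins.

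RNA came from 20 male mice, 5 for each diet, and 3′ mRNA libraries were sequenced. The normal protein diet (NP) held 20% casein and the low protein diet (LP) 5% casein. The high-fat diet (HF) held 60% fat with 20% casein, and the HF + LP diet 60% fat with 5% casein. Per the study's methods the diets began at 12 months of age and lasted 4 months, whereas the labels give every mouse an age of 18 months. All groups shared the tissue, the sex and the supplier, the sources used here name no strain, and animal numbers are unique within a diet but recur between diets. One LP library is labelled as a second sample of animal 5, and no other library of that LP animal was analysed here. It was counted as 1 mouse. The comparisons ask what fat does at normal protein (HF compared with NP), what protein restriction does without and with fat (LP compared with NP, HF + LP compared with HF), and what fat does at low protein (HF + LP compared with LP). HF compared with NP and LP compared with NP share the NP mice, and the other comparisons share their groups in the same way.

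Between 12559607 and 23331907 counts were listed per library, of which 35.4 to 47.2% fell on genes of mitochondrial DNA. Defining markers of heart muscle were high in all 20 libraries, which does not tell ventricle from atrium. In addition, 2 LP libraries stood apart. The library of LP mouse 13 had the lowest sum of the 2 ventricular markers Myl2 and Myl3, with 94995 normalized counts where the NP, HF and HF + LP mice had at least 200844. It also had the highest sums of the 3 atrial markers (227647), of the 4 adipocyte markers (2998) and of the 7 macrophage markers (6683). The library of LP mouse 20 held 526 normalized counts of the 4 listed lymphocyte markers, against 14.3 to 60.9 in the libraries other than LP 13 and LP 20 and 40.3 in LP 13. It also had the lowest sum of the 7 cardiomyocyte markers, 496204 against at least 541539 in the rest, and 1015 normalized counts of the adipocyte markers, against at most 541 in the libraries other than LP 13. The 11 genes of developing T cells and thymic epithelium, a list added after the values were seen, summed to 9949 in LP mouse 20, to 70.4 in LP mouse 13 and to between 30.2 and 95.1 in the rest. Atrial markers also varied elsewhere, from 890 to 184222 in NP, HF and HF + LP mice. Apart from LP mouse 13, sums were highest in HF mouse 1 (184222), LP mouse 15 (79883) and HF + LP mouse 3 (77709). How much atrial tissue these libraries held was not tested. In bulk tissue, fewer cells of a type and less RNA per cell cannot be told apart. Values without LP mice 13 and 20 follow most results that use LP mice, and the part of other tissue in them was not tested.

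Promoters are shown for 5 members. Psmb5 and Psmb6 encode core proteases, Psmc6 encodes a 19S ATPase, and Psmd10 and Psme4 had the smallest p-values of all members. The windows run from 250 bases before to 50 bases after the gene start, are taken from RefSeq (GRCm38.p6) and read 5′ to 3′ on the gene's strand. Capitals mark matches on either strand to 3 sets of letters: TGACNNNGC, the core of the antioxidant response element that the factor Nrf1 also reads, CCGGAAG, an ETS-type motif, and CCAAT, the CCAAT box. No matches overlapped within these windows.
Psmb5 (chr14:54617946-54618245, minus strand): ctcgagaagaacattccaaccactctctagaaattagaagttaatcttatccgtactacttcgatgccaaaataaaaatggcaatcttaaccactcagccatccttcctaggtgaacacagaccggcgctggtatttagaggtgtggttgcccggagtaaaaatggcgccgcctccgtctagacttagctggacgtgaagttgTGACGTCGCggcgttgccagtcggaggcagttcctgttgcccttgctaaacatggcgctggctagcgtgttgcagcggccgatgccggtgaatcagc
Psmb6 (chr11:70525107-70525406, plus strand): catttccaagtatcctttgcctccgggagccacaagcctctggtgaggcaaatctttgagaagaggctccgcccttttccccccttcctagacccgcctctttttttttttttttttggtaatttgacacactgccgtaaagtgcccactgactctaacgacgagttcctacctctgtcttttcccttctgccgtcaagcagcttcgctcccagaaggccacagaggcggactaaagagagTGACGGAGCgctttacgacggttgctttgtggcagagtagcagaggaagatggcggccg
Psmc6 (chr14:45329574-45329873, plus strand): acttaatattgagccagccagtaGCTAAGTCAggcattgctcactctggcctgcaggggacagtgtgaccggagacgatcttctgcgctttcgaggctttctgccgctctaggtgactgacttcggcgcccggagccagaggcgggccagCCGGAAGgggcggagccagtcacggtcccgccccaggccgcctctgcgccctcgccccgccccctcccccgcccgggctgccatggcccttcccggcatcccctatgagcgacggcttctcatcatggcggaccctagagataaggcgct
Psmd10 (chrX:140956662-140956961, minus strand): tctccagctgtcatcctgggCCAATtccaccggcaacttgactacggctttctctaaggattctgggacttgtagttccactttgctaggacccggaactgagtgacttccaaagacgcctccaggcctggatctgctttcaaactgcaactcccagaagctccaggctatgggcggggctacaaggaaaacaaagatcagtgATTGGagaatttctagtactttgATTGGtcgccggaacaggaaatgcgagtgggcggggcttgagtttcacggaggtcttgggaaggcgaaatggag
Psme4 (chr11:30771525-30771824, plus strand): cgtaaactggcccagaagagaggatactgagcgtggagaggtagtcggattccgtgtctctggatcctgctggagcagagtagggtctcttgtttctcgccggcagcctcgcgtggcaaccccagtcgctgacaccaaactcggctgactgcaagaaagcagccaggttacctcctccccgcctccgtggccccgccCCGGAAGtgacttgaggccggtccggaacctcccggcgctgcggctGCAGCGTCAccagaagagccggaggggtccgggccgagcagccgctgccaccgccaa

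The promoter table held 39 of the 47 members with 42 windows. It held none for Psma8, Psmb1, Psmb2, Psmb7, Psmc3, Psmd3, Psmd7 and Psmg2. CCGGAAG was present in 16 of the 42 member windows (38.1%), against 8.86% of the 32851 windows of all genes. The windows with it belonged to 15 members. They were 9 of the 14 19S genes with a window (Psmc1, Psmc2, Psmc6, Psmd2, Psmd4, Psmd6, Psmd11, Psmd12 and Psmd13), 1 of the 12 20S genes (Psma6), 4 chaperones and regulators (Psme3, Psme4, Psmg1 and Psmg3), and Psmc3ip. TGACNNNGC stood in 6 member windows (14.3%), those of Psmb5, Psmb6, Psmc6, Psmd9, Psmd12 and Psme4, and in 12.4% of all windows. CCAAT stood in 14 member windows (33.3%) and in 37.4% of all. These matches describe letters in a window and were not tied to any difference between diets.

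No member passed the study's threshold, an adjusted p under 0.01 with a base mean over 50, in any of the 4 comparisons of diets, in the interaction of fat and protein, or in the test of any difference among the 4 diets. This was tested with edgeR's quasi-likelihood test over 13991 genes, with Benjamini-Hochberg adjustment, and DESeq2 called 0 members as well in all 6 tests. Of the 47 members, 46 passed the filter on low counts and 43 had a base mean over 50. Psmb11 did not pass the filter, and Psma8, Psme2b and Psmc3ip were listed at base means of 10.5, 11.5 and 25.5. The threshold called 0.264% of all genes in HF compared with NP, 0% in LP compared with NP, 0% in HF + LP compared with HF, 0.1% in HF + LP compared with LP, 0% in the interaction and 0.479% in the test of any difference.

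The share of all counts that fell on members was summed first. The 47 genes together took 0.548 ± 0.0146% (SD, n = 5) of the counts outside mitochondrial DNA in NP, 0.534 ± 0.0377% in LP, 0.581 ± 0.0159% in HF mice and 0.567 ± 0.0131% in HF + LP. The lowest share of all 20 mice was 0.473% in LP mouse 13 and the highest 0.599% in HF mouse 4. These shares carry no test because the members were chosen with earlier results known.

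**Figure D1:**
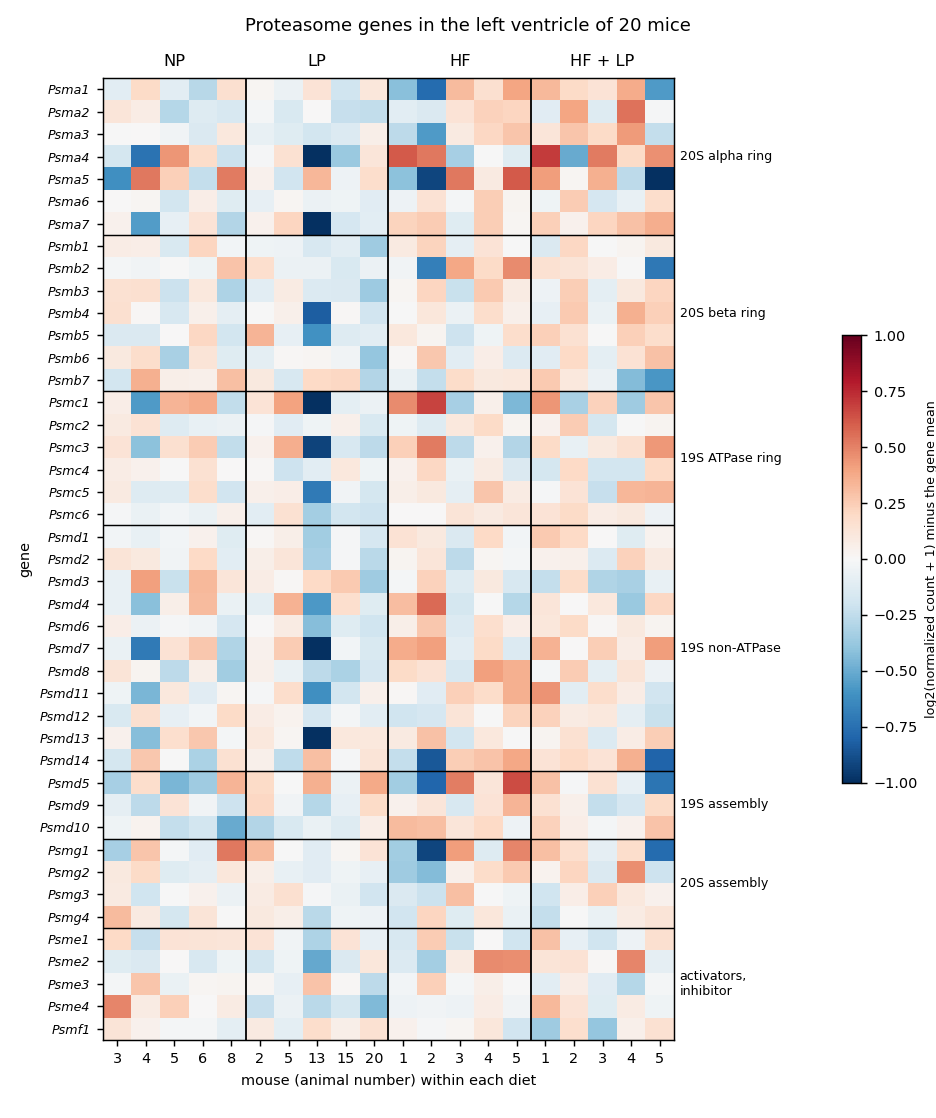
Heat map of the 43 members with a base mean over 50 (rows, by role) in 20 mice (columns, by diet and animal number). Colour gives log2(normalized count + 1) minus the gene's mean over all mice, from -1 (blue) to 1 (red). The column of LP mouse 13 is blue for most 19S genes, and genes such as Psma4 and Psma5 take opposite colours within the same mouse in several diets.

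The alpha ring was examined first. Of its 8 tested genes, 7 were above NP in HF (median log2 fold change 0.13), 7 were below NP in LP (median -0.07) and 7 were above LP in HF + LP (median 0.28). Leaving out LP mice 13 and 20, 6 of the 8 were below NP in LP (median -0.06) and 8 above LP in HF + LP (median 0.23). Psma8, the testis form of Psma7, had the lowest mean level at 7.8 normalized counts in LP, and its interval in LP compared with NP ran from -1.05 to 0.20 (-0.97 to 0.51 without LP mice 13 and 20). Psma7, on chr2:180036374-180042433 (GRCm38, minus strand), encodes the alpha subunit with the largest difference in HF compared with NP among the well-counted ones.

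Psma7 had normalized counts, that is counts scaled to a common library size, of 2847, 1871, 2609, 3024 and 2253 in NP mice 3, 4, 5, 6 and 8. In LP mice 2, 5, 13, 15 and 20 it had 2834, 3204, 1374, 2453 and 2562. In HF mice 1 to 5 it had 3220, 3296, 2540, 3277 and 2792, and in HF + LP mice 1 to 5 it had 3256, 2839, 3205, 3371 and 3546. All 4 groups overlapped, and LP mouse 13 was the lowest of the 20. The log2 fold change was 0.38 in HF + LP compared with LP (SE 0.17, unadjusted p = 0.0344, edgeR adjusted p = 0.273) and 0.22 without LP mouse 13 (adjusted p = 0.532). It was 0.18 without LP mice 13 and 20 (edgeR adjusted p = 0.865).

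Psma2 and Psma4 encode further alpha subunits. Psma2 differed by 0.29 in HF + LP compared with LP on the log2 scale (SE 0.13, edgeR adjusted p = 0.285), and by 0.28 without LP mice 13 and 20. Its gene is overlapped on the same strand by AW209491, so reads of the pair may be shared. The same holds for Psmd1 with Gm37914, Psmd12 with Gm11722 and Psme2b with Gm12185. Psma3 was the 20S gene with the smallest p in HF + LP compared with HF, at 0.19 (SE 0.14, edgeR adjusted p = 0.999).

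The beta ring includes the core proteases. Psmb5 encodes the chymotrypsin-like subunit, Psmb6 the caspase-like subunit and Psmb7 the trypsin-like subunit, and none differed between diets at the threshold. Psmb5 had means of 235 ± 27.6 in NP, 228 ± 52.8 in LP, 245 ± 24.4 in HF mice and 271 ± 18.0 in HF + LP (normalized counts, SD, n = 5). By mouse, it ran from 213 to 280 in NP, 159 to 307 in LP, 210 to 273 in HF and 242 to 286 in HF + LP. The lowest and the highest Psmb5 values of all 20 mice were both in LP, in mice 13 and 2.

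Psmb6 had means of 2088 ± 289 in NP, 1957 ± 213 in LP, 2121 ± 247 in HF mice and 2225 ± 279 in HF + LP. Psmb7 had means of 2049 ± 300.4 in NP, 1904 ± 289 in LP, 1906 ± 215 in HF mice and 1740 ± 418 in HF + LP. The groups overlapped for both genes. HF + LP had the highest of the 4 means for Psmb6 and the lowest for Psmb7. Psmb7 is overlapped on the opposite strand by Nek6 and Gm13586, and the sources used here do not say whether counting used strand, which touches Psma3, Psmc3, Psmc3ip, Psmd5, Psmd13 and Psme1 as well.

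Psmb4, a structural beta subunit, had 2976, 2690, 2385, 2758 and 2504 normalized counts in the NP mice in the order above. It had 2667, 2766, 1508, 2686 and 2338 in LP, 2661, 2893, 2557, 3023 and 2770 in HF mice, and 2523, 3208, 2546, 3411 and 3151 in HF + LP. LP mouse 13 was the lowest of the 20, and the groups overlapped. Its difference in HF + LP compared with LP was 0.31 on the log2 scale (SE 0.14, edgeR adjusted p = 0.267) and 0.12 without LP mice 13 and 20 (adjusted p = 0.885). Psmb1, the beta subunit with the smallest p in LP compared with NP, differed by -0.18 (SE 0.09, edgeR adjusted p = 0.718), and by -0.10 without LP mice 13 and 20 (adjusted p = 1.00).

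Psmb11 encodes the beta subunit of the thymus-specific proteasome, made by cortical thymic epithelial cells. It was counted 225 times in LP mouse 20, the library with the thymic genes described above, and 1 time in 1 of the other 19 libraries. A count of 0 allows up to 3 counts in a library, and this limit covers counting error only. The immunoproteasome genes Psmb8 and Psmb9, which the rule leaves out, had their highest LP values in the same mouse, at 576 and 336 normalized counts.

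**Figure D2:**
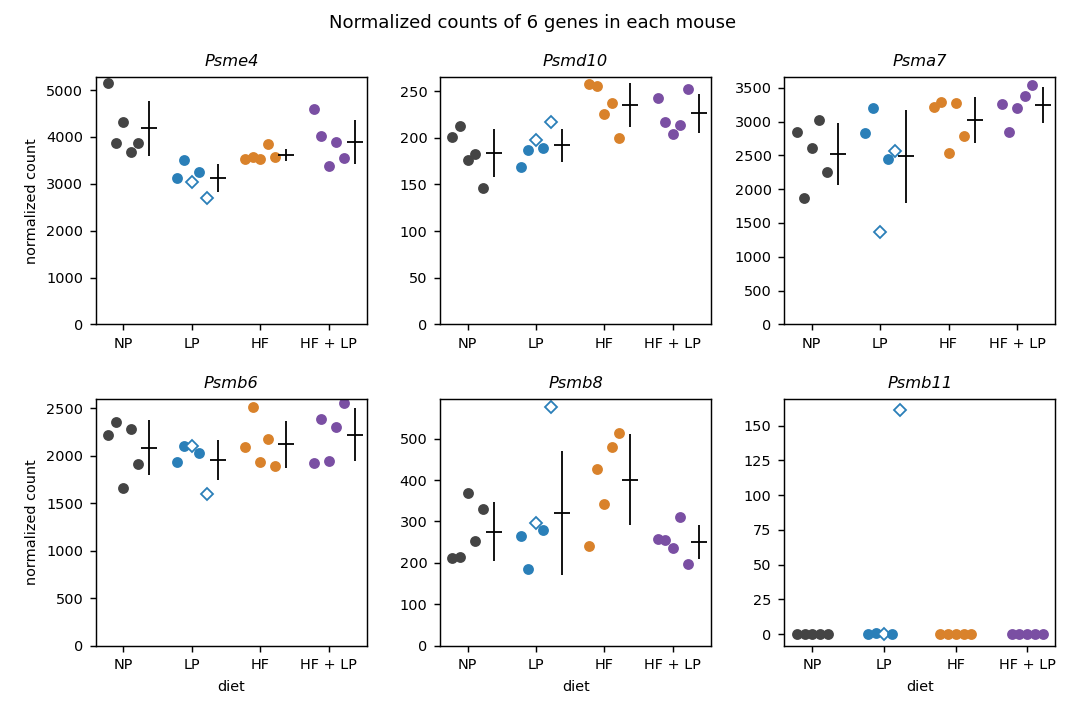
Normalized counts of Psme4, Psmd10, Psma7, Psmb6, Psmb8 and Psmb11 in each mouse by diet, with group means and SD (black, n = 5, omitted for Psmb11). Open diamonds mark LP mice 13 and 20. Psme4 is lower in all LP mice than in all NP mice, and Psmb11 stands out in LP mouse 20 alone.

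The 19S ATPases encoded by Psmc1 to Psmc6 form the ring that unfolds substrates. All 6 were below NP in LP (median log2 fold change -0.10) and all 6 above LP in HF + LP (median 0.19). When LP mice 13 and 20 were left out, 3 of 6 were below NP in LP (median 0.03) and 4 of 6 above LP in HF + LP (median 0.05). In HF compared with NP 5 of 6 were higher (median 0.09), and in HF + LP compared with HF 4 of 6 (median 0.01). Psmc6 had 1150, 1109, 1137, 1107 and 1197 normalized counts in NP, 1074, 1286, 916, 1018 and 1005 in LP, 1162, 1162, 1266, 1230 and 1258 in HF mice, and 1274, 1322, 1219, 1242 and 1118 in HF + LP. LP mice 13, 15 and 20 were the lowest 3 of the 20, and LP mouse 5 was the second highest. In HF + LP compared with LP Psmc6 differed by 0.22 (SE 0.09, unadjusted p = 0.018, edgeR adjusted p = 0.210), and by 0.12 without LP mice 13 and 20 (adjusted p = 0.860).

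The 11 other 19S subunits include the ubiquitin receptor Psmd4 and the deubiquitinase Psmd14. Psmd4 had means of 1753 ± 321 in NP, 1748 ± 405 in LP, 1928 ± 487 in HF mice and 1808 ± 261 in HF + LP. Psmd14 had means of 676 ± 111 in NP, 702 ± 97.4 in LP, 691 ± 212 in HF mice and 702 ± 183 in HF + LP. Spread within a group exceeded every difference between these means.

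Psmd8, a structural subunit of the lid, was the 19S gene with the smallest p in HF compared with NP. It had 2185, 2044, 1673, 2084 and 1575 normalized counts in NP and 2281, 2214, 1791, 2658 and 2559 in HF. HF mouse 3 lay within the NP range and the other HF mice above it. The log2 fold change was 0.27 (SE 0.12, 95% interval 0.02 to 0.52, unadjusted p = 0.0378, edgeR adjusted p = 0.346). Psmd11, also of the lid, differed by 0.23 (SE 0.15, edgeR adjusted p = 0.576). Psmd6, another lid subunit, differed by 0.13 (SE 0.10, edgeR adjusted p = 0.646) and, in HF + LP compared with LP, by 0.21 (adjusted p = 0.294). The latter was 0.09 without LP mice 13 and 20 (edgeR adjusted p = 0.932).

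Assembly chaperones and regulators held the members with the smallest p-values. Psmd10 encodes gankyrin, which helps assemble the 19S base, and lies on chrX:140948429-140956728 (GRCm38, minus strand). It had 201, 212, 176, 182 and 146 normalized counts in NP and 169, 187, 198, 189 and 217 in LP. It had 258, 256, 225, 238 and 200 in HF and 243, 217, 204, 214 and 253 in HF + LP. Of the 5 HF mice, 4 were above every NP mouse. The log2 fold change in HF compared with NP was 0.36 (SE 0.11, 95% interval 0.13 to 0.59, unadjusted p = 0.00433, edgeR adjusted p = 0.120), ranging from 0.28 to 0.41 when 1 mouse was left out. The other 19S chaperones, Psmd5 and Psmd9, were also above NP in HF, and the 3 had a median of 0.22, whereas the 4 20S chaperones Psmg1 to Psmg4 had a median of -0.08.

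Psme4 encodes PA200, an activator that caps the core in place of 19S, and lies on chr11:30771726-30880361 (GRCm38, plus strand). It had 5151, 3876, 4327, 3679 and 3872 normalized counts in NP and 3124, 3517, 3032, 3251 and 2694 in LP. The lowest NP value exceeded the highest LP value, and lower values without overlap occurred for 0.343% of all genes tested. The log2 fold change in LP compared with NP was -0.42 (SE 0.10, 95% interval -0.64 to -0.20, unadjusted p = 0.000661, edgeR adjusted p = 0.387), the 20th smallest p of all genes. Without LP mice 13 and 20 it was -0.34 (unadjusted p = 0.0113, adjusted p = 1.00), and without the LP library labelled as a second sample it was -0.47.

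In HF mice Psme4 had 3538, 3574, 3536, 3849 and 3581 normalized counts, and in HF + LP mice 4597, 4018, 3370, 3886 and 3561. HF + LP mice were mostly above LP mice, with HF + LP mouse 3 inside the LP range. The log2 fold change was 0.32 in HF + LP compared with LP (SE 0.10, edgeR adjusted p = 0.154), -0.21 in HF compared with NP (SE 0.10, adjusted p = 0.408) and 0.10 in HF + LP compared with HF (SE 0.10, adjusted p = 0.999). The interaction, the difference of the protein effect between fat levels, was 0.53 on the log2 scale (SE 0.15, unadjusted p = 0.00198, edgeR adjusted p = 0.614). Without LP mice 13 and 20, HF + LP compared with LP was at 0.23 (edgeR adjusted p = 0.711) and the interaction at 0.44 (adjusted p = 1.00). In the test of any difference among the 4 diets, Psme4 had an unadjusted p of 0.00497 (edgeR adjusted p = 0.102), Psmd10 of 0.00982 (adjusted p = 0.148) and Psmd8 of 0.0453 (adjusted p = 0.301). These unadjusted p-values were 0.0541, 0.00961 and 0.121 without LP mice 13 and 20 (edgeR adjusted p = 0.373, 0.159 and 0.523).

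The activators PA28 alpha and beta are encoded by Psme1 and Psme2, which interferon is known to induce. Psme1 had means of 1424 ± 156 in NP, 1329 ± 165 in LP, 1299 ± 189 in HF mice and 1382 ± 192 in HF + LP. Psme2 had means of 424 ± 20.9 in NP, 410 ± 62.7 in LP, 499 ± 123 in HF mice and 502 ± 79.8 in HF + LP. HF mice 3, 4 and 5 had 479, 626 and 625 for Psme2, above all NP mice, while HF mice 1 and 2 had 412 and 356. The difference in HF compared with NP was 0.24 (SE 0.15, edgeR adjusted p = 0.556). Psme3, the nuclear PA28 gamma, was the regulator with the smallest p in HF + LP compared with HF, at -0.14 (SE 0.10, adjusted p = 0.999).

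In HF compared with NP, 33 of 46 tested members were higher, where 49.9% of all genes were. The median log2 fold change was 0.06 for the 15 20S genes, 0.09 for the 17 19S genes and -0.00555 for the 12 chaperones and regulators, beside -0.000965 for all genes tested. Unadjusted p-values under 0.05 were found for 2 members, Psmd10 and Psmd8, both higher, where 5.17% of all genes were higher at this level. With single mice left out the count ran from 1 to 3, and it was 1 without NP mouse 5, HF mouse 1, HF mouse 4 or HF mouse 5. The share of all genes at this level in these fits was not computed. Among 20S genes Psma6 and Psma2 followed Psma7 by p, at 0.12 (edgeR adjusted p = 0.674) and 0.14 (adjusted p = 0.737). Intervals lay within 0.5 of 0 for 31 of the 46 members. Cell type markers differed in the same comparison. Of 7 cardiomyocyte markers 6 were lower in HF, 3 at an unadjusted p under 0.05, and their sums ran from 545496 to 673171 in HF and from 678212 to 748646 in NP. All 7 macrophage markers were higher, 3 at this level, with sums from 4185 to 6036 in HF and from 3104 to 4653 in NP. The 3 atrial markers were higher, 0 at this level, with sums from 1833 to 184222 in HF and from 2192 to 53673 in NP. All 5 erythroid markers were higher (median 0.58, 1 at this level), as were all 5 fibroblast markers (median 0.19, 0 at this level). The part of these markers in the members' offsets was not tested.

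In LP compared with NP, 38 of 46 members were lower, where 45.4% of all genes were. The medians were -0.08 for 20S and -0.08 for 19S, beside 0.02 for all genes. Lower values were seen for 14 of 15 20S genes and 16 of 17 19S genes. Psme4 alone had an unadjusted p under 0.05, where 2.21% of all genes were lower at this level. Other members with the smallest p-values of their class were Psmb4 at -0.15, Psmd2 at -0.14, Psmc6 at -0.11, Psmc4 at -0.10, Psmg4 at -0.12 and Psmd5 at 0.28, all with edgeR adjusted p-values between 0.850 and 0.914. These 6 were at 0.03, 0.000460, -0.01, -0.08, -0.04 and 0.14 without LP mice 13 and 20. Without LP mice 13 and 20, the 20S median was -0.05 with 11 of 15 lower, and the 19S median was 0.04 with 6 of 17 lower, so the direction of the 19S median turned. In the same comparison with all mice, all 7 cardiomyocyte markers were lower (median -0.21, 1 at an unadjusted p under 0.05). All 4 adipocyte markers were higher (2 at this level), as were all 5 erythroid markers (1 at this level) and 6 of 7 macrophage markers (0 at this level). The 3 tested thymic genes were higher (median 4.81, 3 at this level), as were the 2 tested lymphocyte markers (1 at this level). LP mouse 20 had the highest sums of the thymic and lymphocyte lists. The part of these markers in the members' offsets was not tested.

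In HF + LP compared with HF, members lay near 0. The medians were 0.07 for 20S and 0.01 for 19S, beside 0.02 for all genes. Of 46 members, 26 were higher, where 53.7% of all genes were. No member had an unadjusted p under 0.05, which 4.84% of all genes had, and 35 members had an interval within 0.5 of 0. Of the cell type markers, 6 of 7 for cardiomyocytes were higher (0 at an unadjusted p under 0.05) and all 7 for macrophages lower (1 at this level). The smallest p-values by class, beside the genes given above, were those of Psmb5 at 0.15, Psmb2 at -0.17, Psmd8 at -0.15, Psmd3 at -0.15, Psmd2 at 0.08 and Psmg2 at 0.12, each with an edgeR adjusted p of 0.999.

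In HF + LP compared with LP, 36 of 46 members were higher, where 45.8% of all genes were. The medians were 0.22 for 20S and 0.16 for 19S, beside -0.03 for all genes. Unadjusted p-values under 0.05 were found for 7 members, all higher (Psme4, Psmc6, Psmb4, Psma7, Psma2, Psmd6 and Psmd10), where 6.26% of all genes were. Psmd10 differed by 0.23 (edgeR adjusted p = 0.306), and Psmc5 and Psme2 by 0.26 and 0.29 (adjusted p = 0.359 and 0.350). These 3 were at 0.31, 0.09 and 0.26 without LP mice 13 and 20. With LP mice 13 and 20 left out, 1 member remained at this level, Psmd10, where 7.5% of all genes were at this level in either direction. The 20S median was then 0.12 and the 19S median 0.06. Leaving out LP mouse 13 alone left 2, Psma2 and Psme4, beside 12.3% of all genes. Leaving out LP mouse 20 alone gave 4, with Psmd10, Psme4 and Psme2 higher and Psmd3 lower, beside 13.3% of all genes. This comparison shares its LP mice with LP compared with NP, so the opposite offsets of both are not separate observations. All 4 adipocyte markers were lower in HF + LP than in LP, each at an unadjusted p under 0.05. Their sums were 2998 and 1015 in LP mice 13 and 20. The other LP mice had 19.5 to 66.5, inside the HF + LP range of 4.27 to 121. Of 7 cardiomyocyte markers 5 were higher, with sums from 541539 to 746807 in HF + LP and from 496204 to 711533 in LP. Their part in the members' offsets was not tested.

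The interaction had medians of 0.15 for 20S and 0.07 for 19S, beside -0.01 for all genes. Without LP mice 13 and 20 they were 0.06 and -0.04. Psme4 was the only member of 46 with an unadjusted p under 0.05, where 2.86% of all genes were higher at this level. Psmd2 and Psma3 followed at 0.22 and 0.26 (edgeR adjusted p = 0.816 and 0.842), and were at 0.07 and 0.27 without LP mice 13 and 20. In the test of any difference, 3 members were at this level, where 15.9% of all genes were. The count was 1 (Psmd10) without LP mice 13 and 20, beside 13.9% of all genes, and 5 without LP mouse 5, beside 19.1%.

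**Figure D3:**
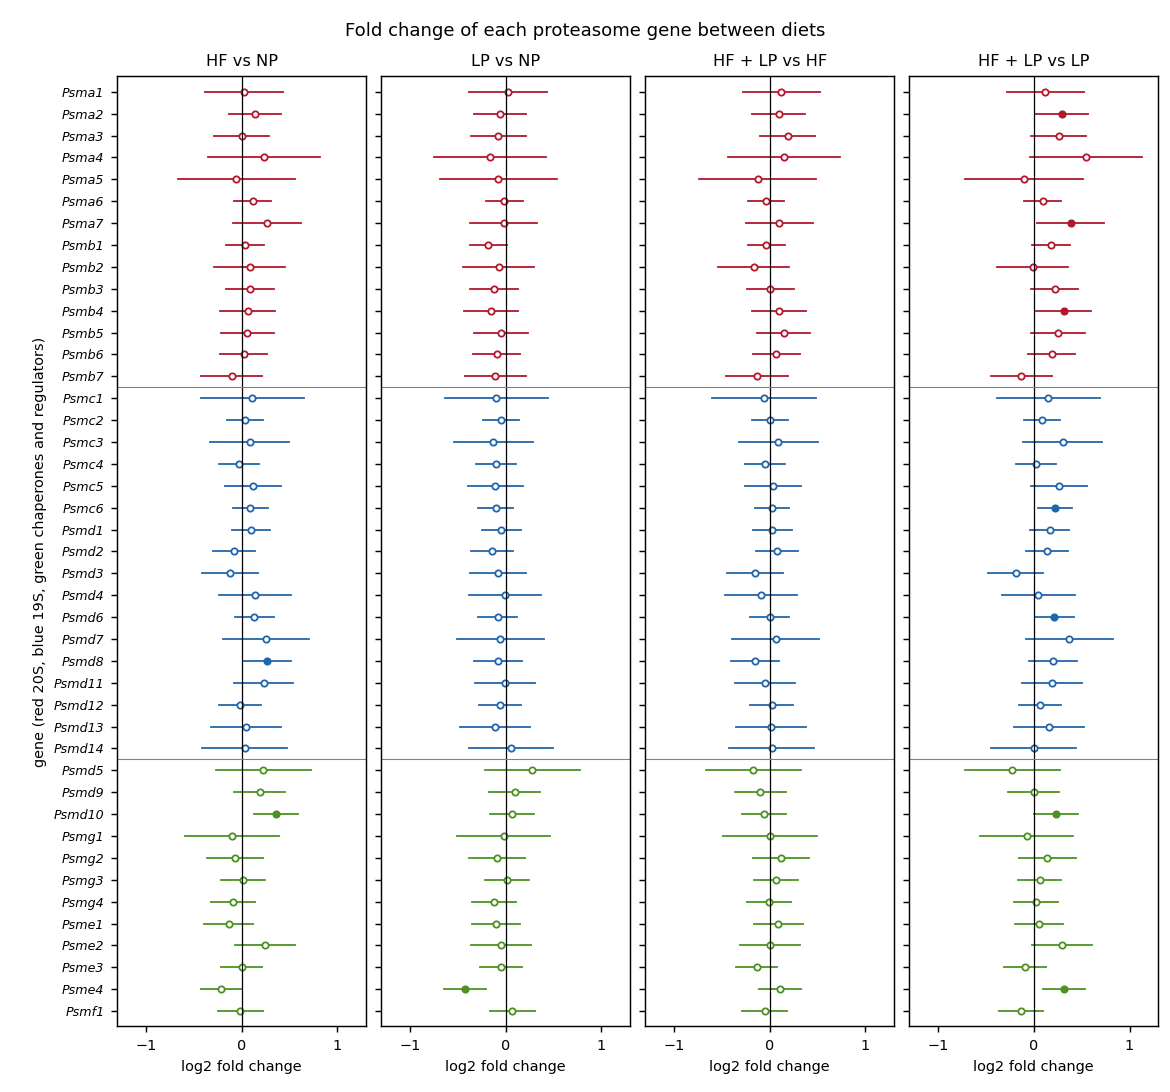
Log2 fold changes (points) with 95% intervals (bars) of the 43 members with a base mean over 50 in the 4 comparisons of diets. Red marks 20S, blue 19S, and green chaperones and regulators. Filled points have an unadjusted p under 0.05. Intervals of most members span 0, and the shifts to the left in LP compared with NP and to the right in HF + LP compared with LP both use the same LP mice.

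The position of each class was then averaged over its genes in single mice. The mean log2 deviation of the 15 20S genes from their means over 20 mice was -0.02 ± 0.00882 in NP (SD, n = 5), -0.12 ± 0.10 in LP, 0.06 ± 0.10 in HF mice and 0.08 ± 0.10 in HF + LP. For the 17 19S genes it was -0.02 ± 0.09 in NP, -0.10 ± 0.21 in LP, 0.06 ± 0.09 in HF mice and 0.06 ± 0.05 in HF + LP. LP mouse 13 stood at -0.28 for 20S and -0.45 for 19S, with 2 of 17 19S genes above their own mean. The NP and LP mice overlapped for 20S once Psma8, with its base mean of 10.5, was left out: over the other 14 genes LP mouse 2 stood at 0.02 and LP mouse 5 at -0.02, and the NP mice between -0.06 and 0.02. For 19S the LP mice lay on both sides of 0, with 0.08 in LP mouse 5.

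**Figure D4:**
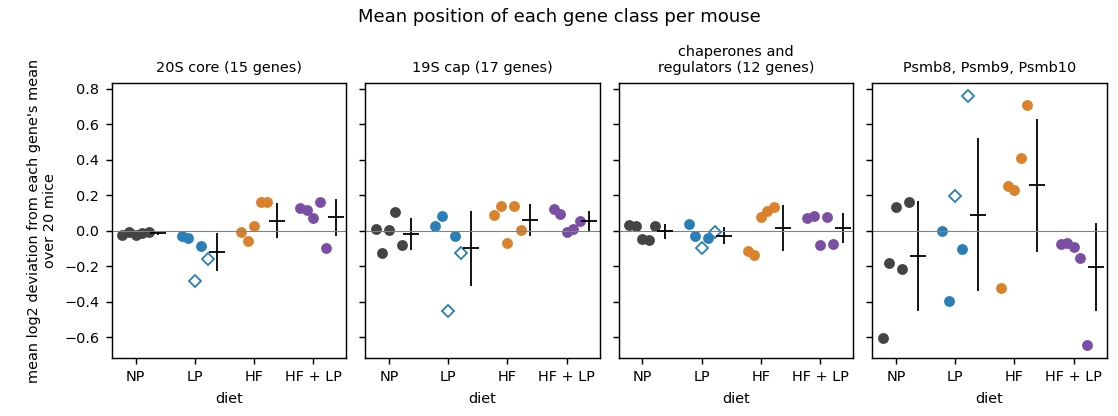
Mean log2 deviation of 4 gene classes per mouse, by diet, with group mean and SD (black, n = 5). Open diamonds mark LP mice 13 and 20. LP mouse 13 is lowest for 20S and 19S, and the spread of the mean of Psmb8, Psmb9 and Psmb10 is larger than that of the constitutive classes in every diet. That mean covers 3 genes, against 12 to 17 in the other classes, and means over fewer genes can vary more.

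Spread within diets differed widely among members. The SD between mice of 1 diet, pooled over diets on the log2 scale, ran from 0.11 for Psmc6 to 0.53 for Psma5, with a median of 0.21 over the 43 members, beside 0.25 over the 10166 genes with a base mean over 50. Psma5 was above 91.1% of these genes, and Psma4, Psmc1, Psmd5, Psmg1 and Psmd7 followed. At the other end Psmc6 was above 1.15% and Psmc2 above 2.43% of them.

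The alpha subunits Psma4 and Psma5, which stand in the same ring, were the 2 members with the largest spread. Psma4 had 723, 488, 1105, 926 and 703 normalized counts in NP, 806, 904, 298, 630 and 885 in LP, 1248, 1178, 649, 815 and 748 in HF mice, and 1325, 576, 1172, 931 and 1122 in HF + LP. Psma5 had 163, 360, 295, 211 and 357 in NP, 257, 219, 314, 241 and 281 in LP, 187, 132, 359, 266 and 383 in HF mice, and 334, 253, 319, 208 and 109 in HF + LP. The pair lay on opposite sides of their diet means in 13 of 20 mice and on the same side in 7. HF mice 1 and 2 were high for Psma4 and low for Psma5, while HF mice 3 and 5, NP mouse 4 and LP mouse 13 were the reverse.

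Other members were counted against these genes in the same way. Psma4 was on the same side as the ATPase Psmc1 in 18 mice, as the lid subunit Psmd7 in 17 and as the ATPase Psmc3 in 16. Psma5 was on the same side as the deubiquitinase Psmd14 in 18 mice and as the chaperone Psmd5 in 18, and Psmd7 and Psmd14 were on opposite sides in 14. Over all 903 pairs of the 43 members, the number of mice on the same side ran from 2 to 19 with a median of 11. These pairs were picked after their values were seen and carry no test. The leading axis of all other genes held 36.1% of their within-diet variance, and the patterns were plotted along it. The part of tissue composition in them was not tested.

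**Figure D5:**
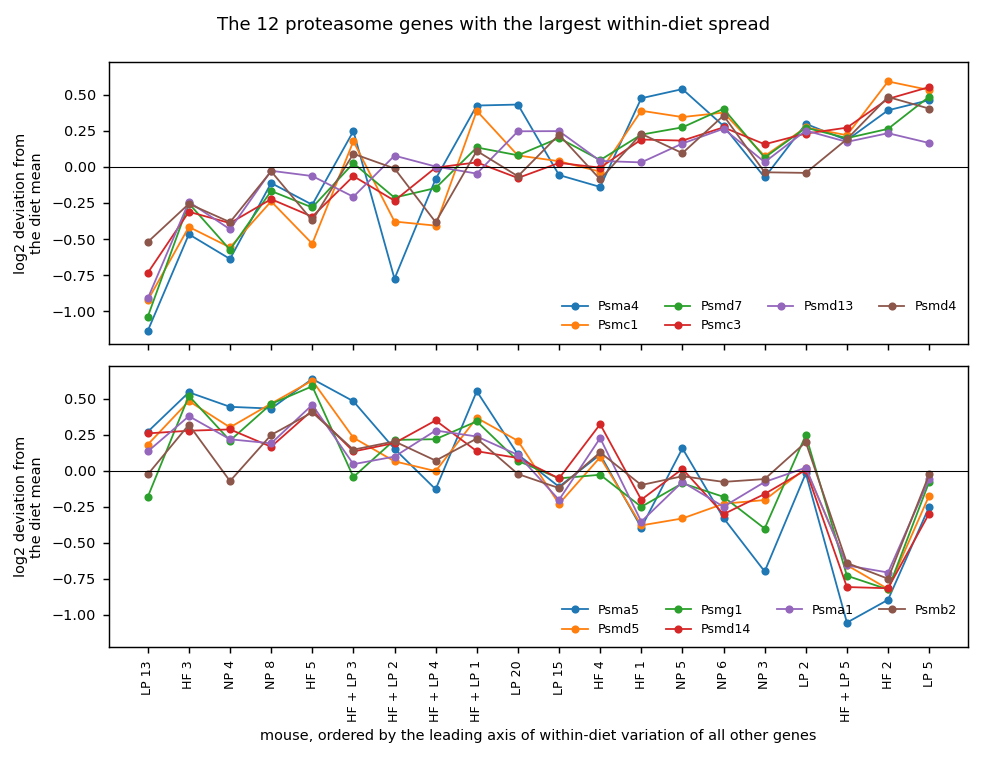
Log2 deviation from the diet mean of the 12 members with the largest within-diet spread in 20 mice, ordered by the leading axis of within-diet variation of all other genes with a base mean over 50. The upper panel holds the 6 genes that were lowest in LP mouse 13 and the lower panel the other 6. The upper genes go from below to above their diet means along this order and the lower genes mostly the other way. LP mouse 13 also lies at the low end of this order, so the first values of both panels follow from how the genes were split.

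Other genes of the pathway were counted from lists written by function. The immunoproteasome genes Psmb8, Psmb9 and Psmb10, induced by interferon, were above NP in HF by 0.54, 0.53 and 0.21 on the log2 scale and below HF in HF + LP by values of -0.68, -0.69 and -0.15, none at the threshold. Psmb8 had 211, 215, 368, 253 and 330 normalized counts in NP, 242, 426, 342, 480 and 514 in HF mice, and 258, 254, 235, 310 and 197 in HF + LP. Its edgeR adjusted p was 0.365 in HF compared with NP and 0.708 in HF + LP compared with HF. The interaction for Psmb8 was -0.90 (edgeR adjusted p = 0.683), and -0.50 without LP mice 13 and 20. All 9 interferon markers were above NP in HF, 6 at an unadjusted p under 0.05 and 1 called by DESeq2. All 9 were below HF in HF + LP, 8 at this level and 3 called by DESeq2, where edgeR called 0 in both. All 7 macrophage markers were likewise higher in the first comparison and lower in the second. Irf7, a master regulator of the response, was called in the test of any difference (edgeR adjusted p = 0.00353). Isg15, a ubiquitin-like modifier, differed by 1.34 in HF compared with NP (edgeR adjusted p = 0.102).

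Genes of the Nrf1 route, which drives proteasome gene transcription when the particle is inhibited, had 0 of 7 called in the 4 comparisons of diets. Nfe2l1, which encodes Nrf1, differed by -0.15 in HF compared with NP (edgeR adjusted p = 0.712), and Maff, a small partner of this family, by 0.49 (adjusted p = 0.351). Ddi2, the protease that activates Nrf1, differed by -0.17 (edgeR adjusted p = 0.567). Of the other proteasome components 0 of 11 were called, and Pomp, the chaperone that matures the core, differed by 0.18 in HF compared with NP (adjusted p = 0.583) and by 0.37 in HF + LP compared with LP (edgeR adjusted p = 0.153). The latter was 0.22 without LP mice 13 and 20 (edgeR adjusted p = 0.722), which had the lowest Pomp values of the 20 mice. The ubiquitin ligase Ube3c, which acts at the proteasome, differed by -0.12 in HF compared with NP (adjusted p = 0.701). Of 11 ubiquitin and shuttle genes 0 were called, with Sqstm1, the autophagy receptor, at 0.31 (edgeR adjusted p = 0.406) and Uba1, the main ubiquitin-activating enzyme, at -0.28 (adjusted p = 0.478) in HF compared with NP. Of 10 genes of p97 and its cofactors 0 were called, with Faf2 at 0.27 (edgeR adjusted p = 0.294) and Faf1 at -0.10 (adjusted p = 0.747). At an unadjusted p under 0.05 in HF compared with NP the Nrf1 list held 1 gene, the other components 0, the ubiquitin genes 0 and the p97 genes 1, and DESeq2 called 0 genes of these 4 lists as well.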

How the data were processed

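Left ventricles of 20 mice (5 per diet) were profiled by QuantSeq 3′ mRNA sequencing with 75-bp reads. The authors aligned reads with BlueBee software, and the deposited values are raw counts per gene, with no normalization and no pooling of replicates. The submitters' processing notes name GRCm38 and DESeq2 1.22.2. The counting program and the annotation are not given in the sources used here. The 15956 listed genes each had at least 60 counts in all, so lower genes were not analysed here.

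Counts were scaled by TMM factors, filtered by filterByExpr and tested with edgeR 4.0.16 (quasi-likelihood, R 4.3.3) in 1 fit of all 20 mice with no covariates, and the p-values of the 13991 genes tested were adjusted by Benjamini-Hochberg. The study's threshold was kept: a gene was called where the adjusted p was under 0.01 and the base mean (mean normalized count) over 50. Normalized counts are counts divided by the effective library size, times its mean over libraries. Alternatives were DESeq2 1.42.0, RLE factors, other filters and thresholds, 2-group fits, covariates, leaving out mitochondrial genes or each mouse, and, added after seeing the data, leaving out LP mice 13 and 20 together. The fit was tested on simulated counts whose known changes were larger than the members' differences between diets. This test does not show how well smaller differences would be found.

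Members and lists were chosen with earlier results of these data known. Named genes were, per comparison, the 3 with the smallest p in each class, plus the catalytic subunits, Psmd4, Psmd14, Psme1, Psme2 and the immunoproteasome genes. From each other list, called genes or the 2 with the smallest p in HF compared with NP were named. Nfe2l1 was named outside this rule, as the gene that encodes Nrf1. Genes shown for spread within diets, and Psmb11, were chosen after their values were seen. Promoters came from RefSeq. Figures were drawn with matplotlib 3.10.9.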

Additional observations from a re-analysis of the deposited data

Results flagged for a closer look

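Among 140 groups of 5 mice, 8 held a mouse whose gap to its nearest neighbour took more than 0.71 of the group's range, the Dixon 95% limit for 5 values, which chance alone passes in about 1 of 20 groups. Psme1, encoding PA28 alpha, had 1152 normalized counts in NP mouse 4, where the next lowest NP mouse had 1470. Psme3, encoding PA28 gamma, had 689.8 in the same mouse, where the next highest had 581. Psme4, encoding PA200, had 3849 in HF mouse 4, where the next highest HF mouse had 3581.

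The beta subunit gene Psmb2 stood apart in 3 diets, with 328 normalized counts in NP mouse 8 (next 269), 302 in LP mouse 2 (next 259) and 164 in HF + LP mouse 5 (next 269). Psmd14, the deubiquitinase of the 19S lid, had 387 in HF + LP mouse 5, below the next lowest at 743. Psmb8, the immunoproteasome subunit, had 576 in LP mouse 20 (next 298), the library that also held the thymic genes.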

How the results depend on the processing

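No member was called in any of the 6 tests under any alternative. The looser adjusted p threshold of 0.05 was applied to the main edgeR fit only. Of 204 class medians recomputed, 200 moved by less than 1 SD between mice, which was 0.0891 for 20S and 0.128 for 19S. That SD exceeded most of the medians, so a median could vanish or turn within it. Of the 204, 13 changed sign: 8 of the 19S median in HF + LP compared with HF, which lay near 0, and the rest under the block or without LP mice 13 and 20. The 19S medians without these 2 mice were 0.04 in LP compared with NP and -0.04 in the interaction. Of 826 values of the members named for a comparison, 4 changed sign. Over all 46 tested members, 20 changed sign in LP compared with NP without LP mice 13 and 20, 15 without LP mouse 13 alone, and 13 each in HF + LP compared with LP and in the interaction without both. With the animal number as a replicate block, the LP compared with NP medians were 0.0145 for 20S and 0.0830 for 19S, Psmc6 was at 0.0830 and Psmb4 at 0.00899. The animal numbers did not pair the mice: deviations of same-numbered mice correlated between -0.55 and 0.47, and the block left 2 of all genes called in HF compared with NP. Without LP mice 13 and 20, an alternative chosen after seeing the data, the 20S median was 0.122 in HF + LP compared with LP and 0.0579 in the interaction, and in LP compared with NP Psmd2 was at 0.000460 and Psmb4 at 0.0281. The cause of these moves was not tested, beyond the fewer mice. With each mouse left out in turn, members called stayed at 0 in all 6 tests. The 20S and 19S medians ran from 0.04 to 0.11 and 0.07 to 0.15 in HF compared with NP, -0.12 to -0.06 and -0.12 to -0.02 in LP compared with NP, 0.01 to 0.09 and -0.02 to 0.03 in HF + LP compared with HF, 0.15 to 0.25 and 0.08 to 0.21 in HF + LP compared with LP, and 0.10 to 0.19 and 0.01 to 0.11 in the interaction.

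Counts over all genes moved more. In the order of comparisons used above for the study's threshold, DESeq2 called 163, 4, 16, 84, 1 and 327 genes, where edgeR called 37, 0, 0, 14, 0 and 67. HF + LP compared with LP had 3 calls without LP mouse 13, 6 without LP mouse 20, 1 without HF + LP mouse 2 or 4 and 0 with the 2 groups alone. Its 7 members at an unadjusted p under 0.05 became 8 with DESeq2, 4 with the library name number as a covariate, 1 with the 2 groups alone and 0 with the block. In the test of any difference the 3 members at this level became 5 with DESeq2 and 0 with the block. The share of all genes at this level was not computed for these alternatives, so these counts cannot be set against it. The adjusted p of Psme4 in LP compared with NP ran from 0.0934 to 1.00 and that of Psmd10 in HF compared with NP from 0.0413 to 0.591 over all alternatives. Over the same edgeR and DESeq2 alternatives, the adjusted p of Psme4 in the test of any difference ran from 0.0229 to 0.639. That of Psmd10 ran from 0.0421 to 0.694.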
